A study of Homo sapiens with 2 samples.

Results

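The genes described here encode 8 dual-specificity phosphatases that switch off MAP kinases, namely DUSP1, DUSP2, DUSP4, DUSP5, DUSP6, DUSP8, DUSP10 and DUSP16, and the Sprouty proteins SPRY2 and SPRY4. They were taken by name, 10 of the 18417 genes that have a probe set with a single symbol in the platform's annotation, and each of them had 1 probe set. Gene expression had been measured on Affymetrix arrays in U251, an established human glioblastoma cell line grown in high-glucose DMEM. One culture condition had received the solvent DMSO and the other G-TPP, a Gamitrinib, at 5 µM, in both cases for 6 h, and each was represented by 1 array. Gamitrinibs join a geldanamycin-type Hsp90 inhibitor to a carrier that takes it into mitochondria, and the comparison asks how transcripts differ between the inhibitor and its solvent. The labels give no transgene or genotype beyond the line. Values are RMA intensities on a linear scale, differences are log2 G-TPP minus log2 DMSO, and without a replicate array no value carries an error or a p-value. "Higher" and "lower" therefore describe this pair of arrays.

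The conventional MAP kinases, such as ERK, JNK and p38, are active only while a threonine and a tyrosine in their activation loop both carry phosphate. The dual-specificity MAPK phosphatases remove both phosphates, and they differ in where they sit and in which kinase they dock to: DUSP1, DUSP2, DUSP4 and DUSP5 are nuclear and mostly inducible, DUSP6 is cytoplasmic and prefers ERK, and DUSP8, DUSP10 and DUSP16 prefer the stress kinases JNK and p38. Sprouty proteins act higher up, between receptor tyrosine kinases and RAF. Many of these genes are themselves transcribed in response to the kinases they restrain, which makes them negative feedback regulators, and receptor signalling of this kind is a common feature of glioblastoma cells.

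Of the 10 genes, DUSP1 and DUSP6 reached 2-fold in the G-TPP array, and none was lower by that much. DUSP1 was 3.02-fold higher and DUSP6 2.57-fold higher. DUSP16 and DUSP10 followed at 1.75-fold and 1.74-fold, SPRY4 and DUSP5 at 1.45-fold and 1.44-fold, and SPRY2 and DUSP8 at 1.15-fold and 1.07-fold. DUSP2 was 1.17-fold lower, and DUSP4 was not measurable above the floor in either array. Over all 11091 genes kept by a filter on brightness, the share past 2-fold was 2.80% upwards and 0.550% downwards. At 1.5-fold, 4 of the 10 genes were higher and 0 lower, where 7.37% of all kept genes were higher and 3.23% lower. At 3-fold DUSP1 was the 1 gene left, beside 0.875% of all kept genes.

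**Figure D1:**
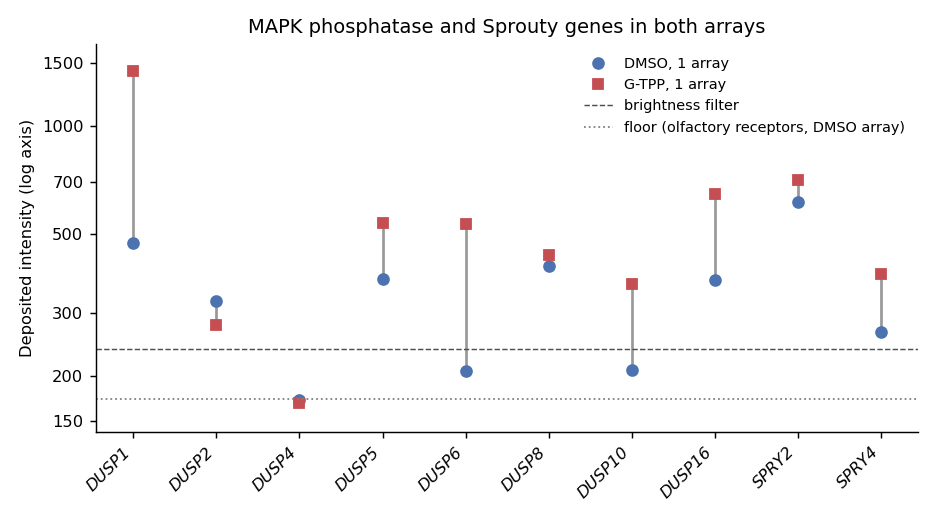
Deposited intensity (log axis) of the 10 genes in the DMSO array (circles) and the G-TPP array (squares), 1 array each, with a line joining both values of a gene. The dashed line is the brightness filter and the dotted line the floor given by olfactory receptor genes. DUSP1 and DUSP6 have the longest lines, DUSP4 lies at the floor in both arrays, and DUSP2 is the gene above the floor whose G-TPP value is the lower one.

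The filter asked that the brighter of a gene's arrays reach an intensity of 239, which is the middle value of that quantity on the array. Of the 10 genes 9 passed it and DUSP4 did not. DUSP6 and DUSP10 passed only through their G-TPP value, so the filter itself favoured a difference in them, and 7 of the 10 were over it in the DMSO array. The median log2 difference was 0.53 over all 10 genes and 0.54 over the 9 kept ones, against -0.043 over all kept genes, and 8 of the 9 kept genes were above 0, against 44.0% of all kept genes. For a scale of array noise, the log2 differences of 341 olfactory receptor genes, expected to be near silent in these cells, had a standard deviation of 0.19, and the largest was 0.80 in size. DUSP1 and DUSP6 lay well past that largest value, DUSP16 and DUSP10 barely past it, and the other genes within it. The receptors were dim, with a median of 68.5 in the DMSO array, so their spread need not hold for brighter genes, and it leaves out differences between cultures.

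**Figure D2:**
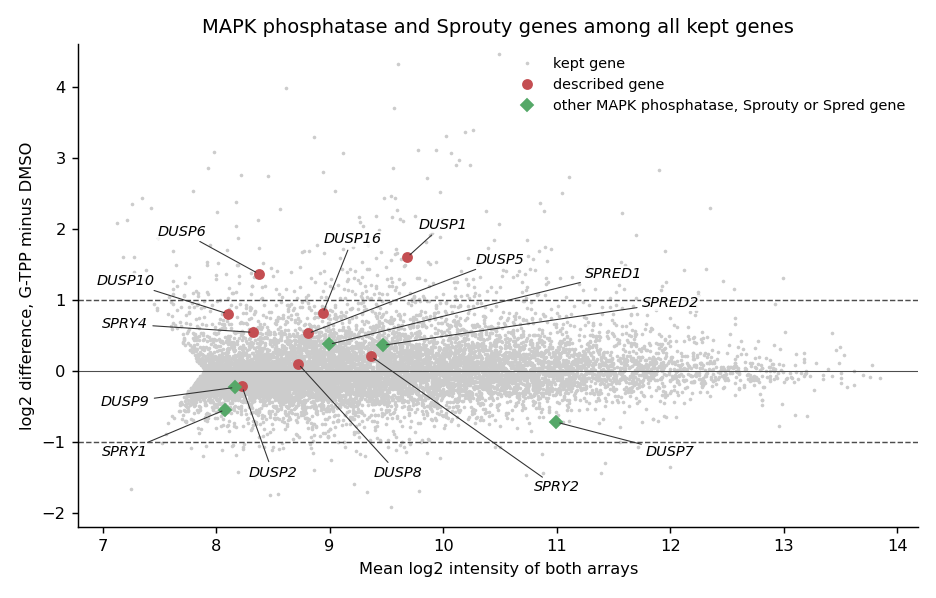
Log2 difference, G-TPP minus DMSO, against the mean log2 intensity of both arrays for the 11091 kept genes (grey), the 9 kept MAPK phosphatase and Sprouty genes described here (red circles) and the kept relatives outside that set (green diamonds). Dashed lines mark 2-fold. DUSP1 and DUSP6 lie above the upper line, while DUSP7 is the lowest of the labelled genes.

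The stretch before the start of transcription is shown for 3 of the genes, DUSP1 and DUSP6 because they were at least 2-fold higher and DUSP8 because it carries the same promoter element as DUSP1 at a fold near 1. The windows are the 250 bases upstream of the RefSeq start in GRCh38.p14, all on the minus strand, at chr5:172771196-172771445, chr12:89352502-89352751 and chr11:1572272-1572521, written 5′ to 3′. Capitals mark matches to the cyclic AMP response element TGACGTCA, its core TGACG, the E-box CACGTG and the antioxidant response element TGACNNNGC on either strand, and overlapping matches run together.
DUSP1: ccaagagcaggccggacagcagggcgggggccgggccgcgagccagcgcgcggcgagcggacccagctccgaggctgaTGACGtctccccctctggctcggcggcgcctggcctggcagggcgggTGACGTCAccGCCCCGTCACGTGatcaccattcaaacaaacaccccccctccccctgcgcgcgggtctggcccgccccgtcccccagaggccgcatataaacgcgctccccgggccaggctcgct
DUSP6: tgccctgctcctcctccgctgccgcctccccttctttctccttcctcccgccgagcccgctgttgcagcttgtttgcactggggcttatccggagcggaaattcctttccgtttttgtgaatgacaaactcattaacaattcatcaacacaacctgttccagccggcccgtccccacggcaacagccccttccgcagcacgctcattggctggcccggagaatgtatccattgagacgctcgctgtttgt
DUSP8: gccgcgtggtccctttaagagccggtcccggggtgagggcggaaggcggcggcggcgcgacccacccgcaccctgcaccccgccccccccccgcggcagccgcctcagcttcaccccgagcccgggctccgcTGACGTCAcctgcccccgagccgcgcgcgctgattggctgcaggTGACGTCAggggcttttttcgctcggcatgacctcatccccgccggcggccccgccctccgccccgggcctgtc

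The full cyclic AMP response element, which CREB and ATF factors bind, was found 125 to 118 bases before the start of DUSP1. It was found in DUSP8 at 118 to 111 and again at 74 to 67 bases before the start. Of all 35116 RefSeq windows of this length 1.65% held it. G and C made up 74.4% of the DUSP1 window and 76.8% of the DUSP8 window, against a median of 58.0% over all windows. The shares given here were not matched for base composition. DUSP1 had a further core at 172 to 168 bases, and the last run of capitals joins a core on the minus strand, a match to the antioxidant element and an E-box. The DUSP6 window held none of the elements searched. Windows were searched for 8 of the 10 genes, 11 in all, since DUSP10 and SPRY2 have several starts. DUSP5 had no window, and DUSP4 was left out by plan. Among the others, SPRY2 and SPRY4 held the core (21.2% of all windows), DUSP2 an E-box (6.34%) and SPRY4 an antioxidant element (10.9%). No window of the 8 genes held the AP-1 site TGANTCA (6.57% of all windows), the C/EBP-ATF element TGATGNAAN (3.13%), the heat shock element of 3 units (0.441%), the serum response element (1.16%), the ETS site CCGGAAGT (3.42%) or the NF-kB site (1.73%). These matches describe letters in a short window, and binding was not measured. DUSP1 and DUSP8, which share the full element, differed between the arrays by 1.60 and 0.097 on the log2 scale.

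Among the nuclear, inducible phosphatases the genes went separate ways. DUSP1 (probe set 8115831), an immediate early gene whose product acts on p38, JNK and ERK, went from an intensity of 473 in the DMSO array to 1430.2 in the G-TPP array, a log2 difference of 1.60. It held place 93 from the top among the 11091 kept genes. DUSP5, whose product binds ERK in the nucleus, went from 374 to 537 (log2 difference 0.52, place 968). DUSP2, best known from activated lymphocytes, was at 324 with DMSO and 278 with G-TPP, a log2 difference of -0.22. That is the lowest of the 9 kept genes and lies in the range of the olfactory receptor spread. DUSP4 was at 171 and 169, under the floor of 173 and 174 that the 95th percentile of the olfactory receptors sets in the DMSO and G-TPP arrays, and no fold is given for it. DUSP1 thus had the largest difference of the 4 genes.

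The phosphatases of the cytoplasm, which are selective for ERK, pointed in opposite directions. DUSP6 (probe set 7965335), a feedback regulator of growth factor signalling, was at 207 with DMSO, over the floor but under the filter, and at 533 with G-TPP. Its log2 difference was 1.36, place 147 among the kept genes. Its relatives DUSP7 and DUSP9, which are outside the 10 genes, were both lower. DUSP7 went from 2627 to 1588, a log2 difference of -0.73 or 1.65-fold lower, and DUSP9 from 313 to 265, a log2 difference of -0.24.

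The 3 phosphatases that prefer JNK and p38 were all above 0 in log2 difference, DUSP8 only slightly. DUSP16, a JNK phosphatase that shuttles between nucleus and cytoplasm, went from 371 to 649, a log2 difference of 0.80 (place 467). DUSP10, which acts on JNK and p38, went from 208 to 363, also a log2 difference of 0.80 (place 474), and its DMSO value lay between the floor and the filter. Neither reached 2-fold. DUSP8, whose promoter window above holds the cyclic AMP response element more than once, was at 408 and 436, a log2 difference of 0.097 (place 3652).

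The Sprouty genes differed less than DUSP1 and DUSP6. SPRY4, which inhibits RAS signalling below receptor tyrosine kinases, was at 267 with DMSO and 387 with G-TPP, a log2 difference of 0.54 (place 918). SPRY2, which binds the ubiquitin ligase CBL and the adaptor GRB2, was at 614 and 706, a log2 difference of 0.20 (place 2634). The family member SPRY1, outside the 10 genes, lay on the other side, at 328 with DMSO and 224 with G-TPP (log2 difference -0.55), and SPRY3 was under the floor in both arrays. The Sprouty-related inhibitors SPRED1 and SPRED2 were 1.29-fold and 1.28-fold higher, and SPRED3 was under the filter at 223 and 211. Of the 5 kept phosphatase, Sprouty and Spred genes outside the described set, 2 were above 0 and 3 below, with a median log2 difference of -0.24, and none reached 2-fold. Over all 7 such genes on the array the median was -0.080.

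**Figure D3:**
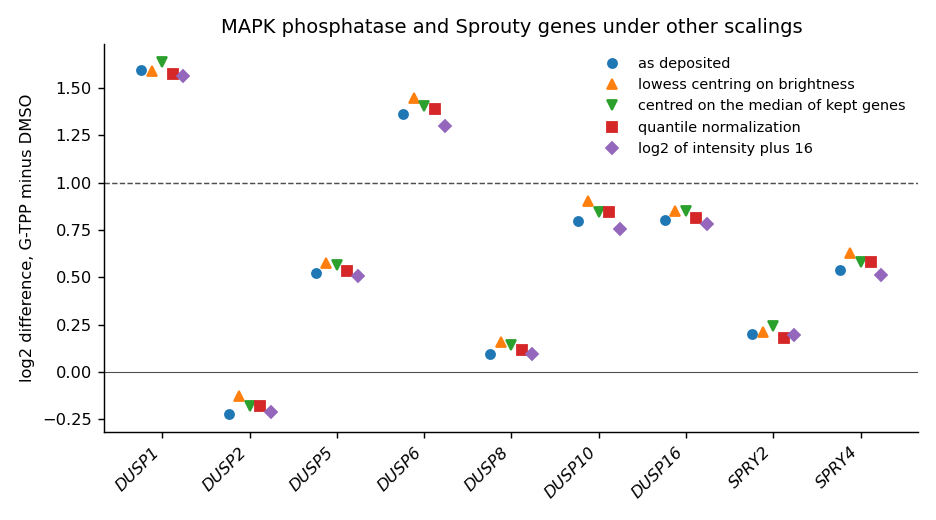
Log2 difference, G-TPP minus DMSO, of the 9 kept genes as deposited and under 4 other scalings (symbols). The dashed line marks 2-fold. DUSP1 and DUSP6 stay above it, the others below it, and DUSP2 stays below 0 under each scaling shown.

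The order of the 9 differences did not rest on the scaling for the genes at its ends. Over the deposited values, lowess centring on brightness, centring on the median, quantile normalization and a pseudocount of 16, the log2 difference of DUSP1 ranged from 1.56 to 1.64 and that of DUSP6 from 1.30 to 1.45. DUSP10 ranged from 0.76 to 0.91 and DUSP16 from 0.78 to 0.85, so these neighbours in the order overlapped. DUSP5 (0.50 to 0.58) and SPRY4 (0.51 to 0.63) overlapped as well. DUSP8 ranged from 0.093 to 0.16 and DUSP2 from -0.22 to -0.13.

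The kept genes closest to DUSP1 and DUSP6 were found by the distance over the log2 intensities of both arrays, that is over 2 samples. Nearest to DUSP1 were CALCOCO2, an autophagy receptor gene, at a distance of 0.082, FYN, a Src family kinase gene, at 0.087, and JUN, the AP-1 subunit phosphorylated by JNK, at 0.098. Nearest to DUSP6 were FRY at 0.052, MAP1LC3B, an autophagosome protein gene, at 0.065 and DAAM1, a formin gene, at 0.095. With 2 arrays such closeness says only that the deposited values are alike.

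Genes for the kinases themselves differed little. Of 14 MAP kinase genes 9 were kept, and none reached 2-fold. MAPK6, which encodes the atypical kinase ERK3, was 1.76-fold higher, from 1349 to 2370.0. MAPK12, a p38 isoform gene, and MAPK3, which encodes ERK1, were 1.30-fold and 1.28-fold lower, and the JNK1 gene MAPK8 was 1.24-fold higher. The kinases above them, 19 kept of 25, had a median log2 difference of 0.18, and again none reached 2-fold. TAOK3 and MAP3K20 were 1.71-fold and 1.45-fold higher, MAP3K12 and MAP3K6 1.61-fold and 1.54-fold lower. A list of atypical dual-specificity phosphatase genes, with STYX, STYXL1 and the SSH genes counted in, had a median of -0.015 over 10 kept genes of 18. The largest difference among them was that of DUSP14, 1.45-fold higher, and SSH3, DUSP3 and DUSP12 were 1.27-fold lower, 1.24-fold higher and 1.20-fold higher.

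Upstream, where Sprouty proteins act, 21 of 27 genes for RAS proteins, exchange factors and adaptors were kept, with a median log2 difference of 0.16, or 0.093 over the 23 on the array with no filter. CBLB, a ubiquitin ligase gene related to the SPRY2 partner CBL, went from 347 to 1376 and was 3.96-fold higher, the 1 gene of the list at 2-fold. CBL itself was 1.36-fold higher. The RAS exchange factor genes SOS2 and SOS1 were 1.94-fold and 1.46-fold higher, and the RAF scaffold gene SHOC2 was 1.85-fold higher. Of 18 growth factor receptor genes 9 were kept, with a median of 0.0045, or -0.061 over all 18 with no filter. PDGFRA, which went from 1592 to 490.1, was the 1 gene at 2-fold, and FGFR3 was 1.52-fold lower. EGFR and MET were 1.17-fold and 1.13-fold higher. Receptor ligands had a median of 0.56 over 13 kept genes of 23. It was 0.26 over the 21 on the array when no filter was used, which adds 8 genes under the floor in both arrays. EGF, BTC, FGF21 and PDGFA passed the filter only through their G-TPP value, so the filter itself favoured a difference in them. FGF18 and PDGFB passed it only through their DMSO value. VEGFA was 2.47-fold higher. EGF, under the floor with DMSO, was at least 1.82-fold higher, and FGF21, NRG1 and FGF2 were 1.83-fold, 1.70-fold and 1.65-fold higher. EGF passed 2-fold after lowess centring, when the list had 2 such genes.

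**Figure D4:**
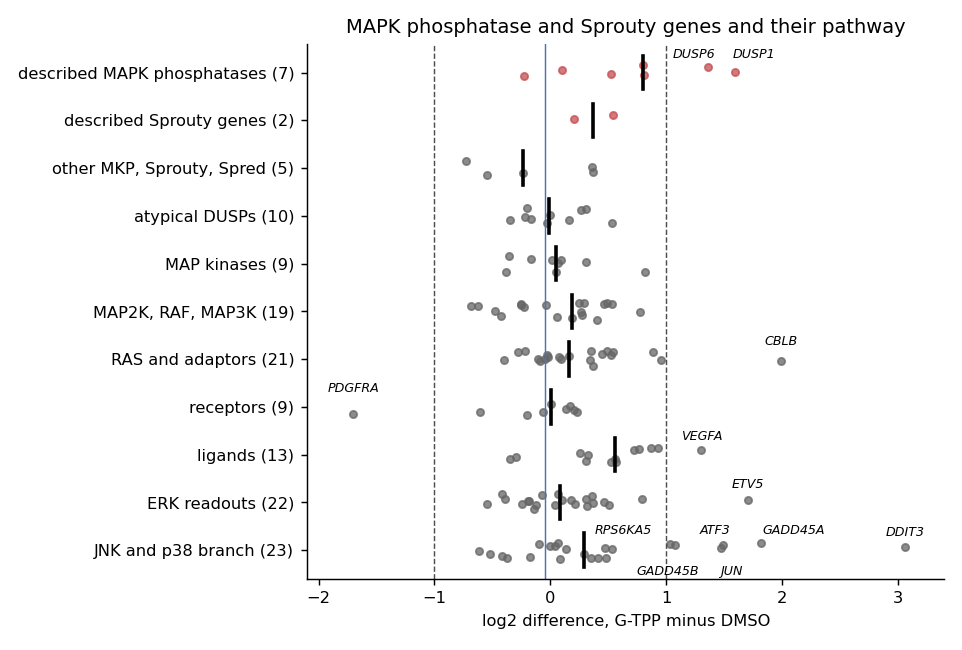
Log2 difference, G-TPP minus DMSO, of each kept gene (points) in the described set (red) and in lists of the pathway around it (grey), with the number of kept genes in parentheses and the median of each list as a black bar. Dashed lines mark 2-fold and the blue line is the median of all kept genes, -0.043; genes past 2-fold are named, and 6 of them stand in the list of the JNK and p38 branch.

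Other transcripts often read as outputs of ERK mostly differed less than DUSP6. Of 27 such genes 22 were kept, SPRED1 and SPRED2 among them, with a median log2 difference of 0.083, 13 above 0 and 9 below. ETV5, a transcription factor gene of the PEA3 group, was the 1 gene at 2-fold, with values of 1095 and 3576, 3.27-fold higher with G-TPP. Its relative ETV4 was 1.23-fold higher, and ETV1 was under the filter. The immediate early genes FOS and EGR1 were 1.13-fold and 1.07-fold higher, at 291 and 329 for FOS and 453 and 486 for EGR1. MCL1 was 1.73-fold higher, KLF6 1.42-fold higher, EPHA2 1.38-fold higher and SRF 1.46-fold lower. CCND1, MYC and PHLDA1 were 1.18-fold, 1.11-fold and 1.31-fold lower.

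In the list of the JNK and p38 branch 23 of 24 genes were kept, with a median log2 difference of 0.29. At least 2-fold higher were 6 of them, where the share over all kept genes was 2.80%. Of the 6, ATF3 and RPS6KA5 passed the filter only through their G-TPP value, and RPS6KA5 was under 2-fold against the floor. The list was chosen with earlier results of these data known, so its count is a description and not independent of them. GADD45A and GADD45B, whose products bind the JNK and p38 activator MAP3K4, were 3.52-fold and 2.10-fold higher, from 318 to 1121 and from 463 to 975, while GADD45G was 1.06-fold higher. JUN went from 484 to 1342 and DDIT3, a p38 substrate gene that is also a main target of ATF4, from 372 to 3104. ATF3 was at least 2.35-fold higher against the floor. RPS6KA5, a kinase gene below ERK and p38, was 2.05-fold higher as deposited, but at least 1.59-fold when its DMSO value of 134 was raised to the floor. JUNB and ZFP36L2 were 1.44-fold and 1.53-fold lower, and MEF2D and ATF2 were 1.45-fold and 1.40-fold higher. ZFP36, whose product degrades AU-rich messages, had a log2 difference of 0.13. Kinase activity and phosphatase protein were not measured, and transcript levels alone do not give them.

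The markers of the culture matched a glial tumour line in part. VIM, CD44 and TNC were at 7146, 8013 and 4743 in the DMSO array and at 6494, 7614 and 5114 in the G-TPP array, whereas GFAP was near the filter at 245 and 232 and S100B and AQP4 were under the floor. Of 12 glial and glioma markers 9 were kept, 3 above 0 and 6 below. The summed intensity of all 12 was 27974 with DMSO and 24198 with G-TPP. SOX2 went from 4434 to 1629, 2.72-fold lower, SOX9 was 1.98-fold and NES 1.42-fold lower, and SLC1A3 was 1.56-fold higher; the part of these differences in those of the phosphatase genes was not tested. Markers of other cell types were in part over the filter. Kept were 2 of 8 immune genes (CD68 and TYROBP), 2 of 6 endothelial genes (CDH5 and CLDN5), 2 of 6 neuronal genes (RBFOX3 and GAD1), 3 of 6 epithelial genes (KRT8, KRT18 and KRT19) and 1 of 5 blood and liver genes (APOA1), and none of them differed by 2-fold. KRT8 was far over the filter, at 2167 with DMSO and 1809 with G-TPP. PTPRC, PECAM1, STMN2, EPCAM and ALB from the same lists were under the floor in both arrays. ACTB and GAPDH, used as controls, were at -0.11 and -0.061 in log2 difference. In RNA of a whole culture, fewer cells with a transcript and less of it per cell cannot be told apart.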

How the data were processed

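The values the authors deposited are intensities, 1 for each probe set in each array, and run from 6.61 to 18995, so they are not logarithms. Per the submitters' processing notes these are RMA values from Affymetrix Expression Console 1.1.2; no build or probe filter is named in the sources used here, nor the step that undid RMA's logarithm. RMA normally makes the distributions of arrays processed together alike, which would hide a change in total RNA; whether both arrays were processed together is not stated, and their medians were 224.8 (DMSO) and 215.5 (G-TPP). For arrays, their number limits the precision, here 1 per group.

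Of 33297 probe sets, 19460 had 1 gene symbol in the platform's annotation, 1754 had several and 12083 were unlisted. Symbols were updated through RefSeq gene IDs (GRCh38.p14), found for 19429. For genes with several probe sets the brightest on average was used. The log2 difference was taken with no pseudocount and counted at 2-fold. A gene was kept if its brighter array reached 239, and 11091 were. Where the dimmer array lay under the 95th percentile of olfactory receptors (173 and 174), the fold is a lower bound against it.

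The genes, lists and motifs were chosen with earlier results of these data known. The named genes are the 10 described, their closest relatives, genes past 2-fold, the 3 nearest genes and fixed control and readout genes. Further genes of each list were named mostly by the size of their difference. That rule was not kept strictly, so some smaller differences are given and some larger ones left out. The planned comparison of protein sequences was not made. The calculation was tested on simulated data, with large shifts set in bright genes and noise smaller than the olfactory receptor spread. That checks the arithmetic and does not show how well changes in dim genes are found. The scripts ran in Python 3.11.15 with pandas 2.3.3 and numpy 2.4.6; lowess came from statsmodels 0.14.6 and plots from matplotlib 3.10.9. Alternatives, fixed with the lists, were other thresholds, filters, scalings, a pseudocount and choices among probe sets.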

Additional observations from a re-analysis of the deposited data

How the results depend on the processing

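The count of 2 genes at least 2-fold higher and 0 at least 2-fold lower held with no brightness filter, with a filter on the mean of both arrays, under lowess centring, median centring, quantile normalization and the pseudocount of 16, and with each choice among probe sets, where DUSP1 and DUSP6 were the genes each time. Each of the 10 genes has 1 probe set, so the last choice could not move them. At 1.5-fold the count was 4, with DUSP10 and DUSP16 added, and at 3-fold it was 1, DUSP1. As deposited DUSP1 was only just past 3-fold, at 3.02-fold. Its log2 difference was 1.576 under quantile normalization and 1.565 with the pseudocount of 16, both under 3-fold. With the filter at the 75th percentile 2 of the genes were left, the count was 1 (DUSP1) and the median log2 difference was 0.90, because DUSP6 and most others were too dim for that filter. With a single array per condition, leaving out a replicate was not possible. No paired analysis was possible because the groups share fewer than 2 replicate numbers. Dim signal limits DUSP4, which is at the floor, and DUSP6 and DUSP10, whose DMSO values lie near it.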

Other observations

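Kept genes were also grouped by the promoter elements searched for the phosphatase genes, a description of single arrays with no test. Of 8946 kept genes with a RefSeq window 262 reached 2-fold in the G-TPP direction (2.93%). Those with the full cyclic AMP response element, which DUSP1 and DUSP8 share, were near that share, 9 of 320 (2.81%), with a median log2 difference of 0.012. For the core TGACG, held by DUSP1, DUSP8, SPRY2 and SPRY4, the count was 102 of 3203 (3.18%). Genes with the C/EBP-ATF element held 16 of 206 (7.77%), and genes with the heat shock element 5 of 34 (14.7%). None of the 8 phosphatase and Sprouty genes whose windows were searched was in the last groups. For the serum response element the count was 7 of 131 (5.34%), for the AP-1 site 20 of 523 (3.82%), for the antioxidant element 48 of 1437 (3.34%), for the ETS site 17 of 741 (2.29%), for the E-box 26 of 1024 (2.54%) and for the NF-kB site 3 of 226 (1.33%).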
